A study of Homo sapiens with 4 samples.

Results

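The genes described here are the numbered zinc finger genes of the ZNF series that were well counted in SUM159 cells, 191 genes in all. They were selected on their measured counts from 521 rows with a numbered ZNF symbol, among 23394 gene rows, by 1 rule: an estimated count of at least 200 in each of the 4 libraries. SUM159 is a triple-negative breast cancer cell line, grown here in F12 medium with 5% serum, insulin and hydrocortisone. The 2 control libraries came from cells given DMSO, and the 2 knockdown libraries from cells given doxycycline, which switches on a small interfering RNA against SHARP, an alias of SPEN. Doxycycline was given to the knockdown cells and not to the controls, so effects of the drug and of the knockdown cannot be told apart. The labels do not state whether the control cells carried the inducible construct, nor whether the replicates were separate cultures, so the p-values cover spread among these libraries alone, and that spread may be technical. Membership rests on the count level in all 4 libraries, so that these genes are well counted is no finding. The rule did not use the difference between knockdown and control directly, but membership is not independent of it. A gene that fell can miss the rule in a knockdown library, and a gene that rose in a control library. Of 30 numbered ZNF genes with a mean count of at least 200 that missed it, 2 rose and 14 fell.

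ZNF genes form a large group of human transcription regulators. Most of them carry an array of C2H2 fingers, short loops folded around a zinc ion that read DNA, and many also carry a KRAB box, which recruits TRIM28, the histone methyltransferase SETDB1 and HP1 proteins to silence repeats and genes. Others have no KRAB box and work as activators, in RNA processing or on ribosomes. SPEN is a large corepressor that links the Notch effector RBPJ to histone deacetylases.

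Total counts were 16505326 and 17197706 for the controls and 15728383 and 15641292 for the knockdown; each library detected 17237 to 17308 genes. SPEN, which checks the labels, had 187 and 184 CPM in control cells and 107 and 108 CPM in knockdown cells. CPM is a count relative to the library total, scaled here by the TMM factors of edgeR. The groups did not overlap, and the log2 fold change of SPEN, knockdown over control, was -0.78 (SE 0.035, adjusted p = 1.39e-10 by edgeR quasi-likelihood). Leukocyte markers summed to 1.10 to 2.40 CPM and endothelial markers to 1.30 to 2.56 CPM per library. Of the leukocyte markers, ITGAM was called higher, with 0 counts in each control and 10 and 19 in the knockdown. CD14 was not called, and the other leukocyte markers were not tested. The 5 mesenchymal-like breast cancer markers, VIM, AXL, SPARC, ZEB1 and CDH2, summed to 4176 and 4182 CPM in the controls and to 6135 and 6221 CPM in the knockdown. Most of each sum was VIM, with means of 3257 and 5020 CPM. Of the 5, 4 rose, against 33.0% of all genes with at least 200 counts in each library. Of the luminal markers, GATA3 fell (log2 fold change -0.60), FOXA1 and KRT18 were not called, and ESR1 and PGR were not tested. The part of these marker shifts in the results below was not tested.

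Promoter sequences are shown for the 2 members with the largest rises and the 2 with the largest falls, so that the genes at the ends of the range can be compared, with the matches to 3 searched motifs in capitals. They are RefSeq sequences of the GRCh38.p14 build, the 250 bases before the gene's start, 5′ to 3′ on the gene's strand; the counts themselves were made on GRCh37. ZNF697 lies on the minus strand with its window at chr1:119648267-119648516, ZNF281 on the minus strand at chr1:200410037-200410286, ZNF358 on the plus strand at chr19:7515853-7516102 and ZNF441 on the plus strand at chr19:11766750-11766999.
ZNF697: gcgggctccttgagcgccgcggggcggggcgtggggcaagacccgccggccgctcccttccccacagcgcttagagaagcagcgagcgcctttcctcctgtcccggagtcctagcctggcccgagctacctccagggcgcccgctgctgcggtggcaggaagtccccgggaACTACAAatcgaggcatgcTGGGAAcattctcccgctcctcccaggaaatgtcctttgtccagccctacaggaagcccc
ZNF281: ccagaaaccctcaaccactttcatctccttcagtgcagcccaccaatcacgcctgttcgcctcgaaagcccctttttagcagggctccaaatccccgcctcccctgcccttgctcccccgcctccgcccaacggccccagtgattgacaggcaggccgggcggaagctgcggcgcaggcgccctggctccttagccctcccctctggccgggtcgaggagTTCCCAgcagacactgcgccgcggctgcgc
ZNF358: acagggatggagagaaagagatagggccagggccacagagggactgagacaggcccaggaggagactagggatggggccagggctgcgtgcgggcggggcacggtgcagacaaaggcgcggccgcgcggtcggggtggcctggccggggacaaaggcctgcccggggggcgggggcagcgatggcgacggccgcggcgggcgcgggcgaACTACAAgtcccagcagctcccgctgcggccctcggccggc
ZNF441: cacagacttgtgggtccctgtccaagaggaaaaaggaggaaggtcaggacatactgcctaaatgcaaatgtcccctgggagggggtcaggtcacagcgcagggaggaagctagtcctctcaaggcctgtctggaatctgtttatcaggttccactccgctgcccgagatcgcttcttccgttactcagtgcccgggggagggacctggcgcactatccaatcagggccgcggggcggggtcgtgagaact
The motifs, searched on both strands, were TGGGAA (the core of RBPJ sites), ACTACAA (part of the site of the zinc finger protein ZNF143) and CCGGAAG (the core of ETS factor sites); none of these strings contains another. The ZNF697 window held TGGGAA and ACTACAA, the ZNF281 window held TGGGAA on the other strand, the ZNF358 window held ACTACAA, and the ZNF441 window held none of them. Of the 191 members, 165 had a promoter in the RefSeq table. TGGGAA was found in 47 of the 165 windows (28.5%), against 21.1% of 27305 promoters of the same length. By call in the knockdown it was present in 11 of 42 members that rose (26.2%), 7 of 34 that fell (20.6%) and 29 of 89 that were not called (32.6%). CCGGAAG was found in 48 of 165 members (29.1%) and in 8.82% of all promoters. ACTACAA was found in 10 of 165 (6.06%) and in 2.64%. The 27305 promoters were taken whatever the count of their gene, and no share was computed for genes that meet the count rule. The gaps therefore cannot be read as particular to ZNF genes. By call, ACTACAA was in 6 of 42 members that rose (14.3%), 2 of 34 that fell (5.88%) and 2 of 89 not called (2.25%). For CCGGAAG these counts were 12 of 42 (28.6%), 6 of 34 (17.6%) and 30 of 89 (33.7%). Among all genes with at least 200 counts in each library, 33.0% were called higher and 27.9% lower. The motif counts are few and were not tested. A match is a description of the letters and does not show that a factor binds there.

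In the SHARP knockdown the zinc finger genes shifted by small amounts in both directions. Of the 191 members, 46 rose, 38 fell and 107 were not called by edgeR's quasi-likelihood test at a threshold of 0.05 on the p-value adjusted over all 13915 genes tested. Thus 44.0% of the members were called, against 50.1% of all genes tested (25.1% higher and 24.9% lower). The nearer background is the 8774 genes that met the same count rule, of which 60.9% were called, 33.0% higher and 27.9% lower; among the members 24.1% were higher and 19.9% lower. The 8774 genes, called equally counted below, share only the count rule with the members. Their median level was 55.1 CPM, against 30.8 CPM for the members. Both shares of the members lie below those of the 8774 genes, and the part of the lower level in this was not tested. The counts on their own are no result particular to zinc finger genes. In bulk RNA, fewer cells of a kind and less RNA per cell cannot be told apart.

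The median log2 fold change of the members was -0.0075 (middle 50% of values from -0.13 to 0.17), against 0.0012 over all genes tested and 0.024 over the equally counted genes. The median size of the change, whatever its sign, was 0.16 on the log2 scale for the members and 0.18 for the equally counted genes. Most called changes were small: 55 of the 84 called members (65.5%) changed less than 1.25-fold, against 60.7% of called genes under the same count rule. At least 1.25-fold, 12 members rose and 17 fell; at least 1.5-fold, 3 rose (ZNF697, ZNF281 and ZNF267) and 1 fell (ZNF358). The 191 members summed to 8336 and 8247 CPM in the controls and to 8328 and 8321 CPM in the knockdown, and these TMM-scaled sums overlapped. As an unscaled share of the counts of a library they made up 0.847% and 0.836% under DMSO against 0.818% and 0.820% under knockdown, so both knockdown libraries were lower on that scale. Numbered ZNF genes below the count rule are not in these sums.

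Libraries of a group were more alike than libraries of different groups. Across the 191 members the log2 levels correlated with r = 0.994 between the controls, 0.995 between the knockdown libraries and 0.960 to 0.963 between a control and a knockdown library; this is across genes, which are not independent replicates. The median size of the log2 difference between libraries was 0.062 within either group and 0.15 to 0.18 between groups. The groups did not overlap in 137 of 191 members (71.7%), 73 with the knockdown above and 64 with it below, against 74.3% of all genes tested and 80.9% of equally counted genes. With scaling by library size alone, in place of TMM, 35 members rose and 44 fell, so that 44.3% of called members were higher in place of 54.8%; that scaling moved the median of all genes to -0.044 and that of the members to -0.053. Without control replicate 2 the number that rose was 30 (31 fell), and with DESeq2 it was 29 (29 fell).

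**Figure D1:**
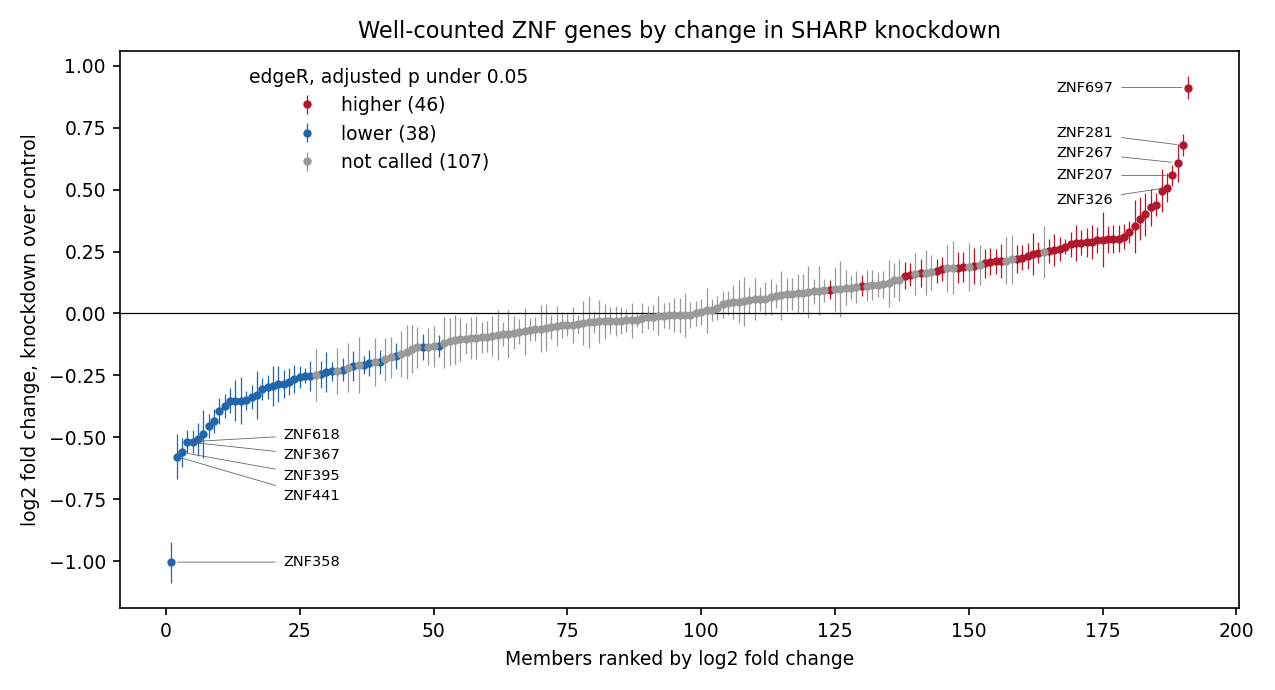
Log2 fold change (knockdown over control) of each of the 191 members on the vertical axis, ranked from the lowest to the highest on the horizontal axis; points are fitted values, bars 1 standard error, colours the edgeR call. Most members lie within 0.25 of 0 on the log2 scale, while ZNF697 (0.91) and ZNF358 (-1.004) stand at the ends.

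The largest rises and falls were taken from called members whose groups do not overlap, so the lack of overlap in these genes follows from that choice. The largest rise was that of ZNF697, a C2H2 gene with 11 finger matches and no KRAB box, whose promoter is printed above. It had 63.4 and 63.0 CPM in the control libraries and 119 CPM in both knockdown libraries. The knockdown libraries were both high and the groups did not overlap. The means were 63.2 ± 0.296 and 119 ± 0.369 CPM (SD, n = 2 each), a 1.88-fold rise with a log2 fold change of 0.91 (SE 0.046, adjusted p = 5.76e-10 by edgeR quasi-likelihood). Of its 32-base windows 0.14% occur in another gene, and no other gene overlaps its exons.

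ZNF281, a regulator that binds GC-rich promoters and is known from stem cells and from epithelial-mesenchymal transition, followed. Its level was 47.0 and 47.1 CPM in the controls and 74.5 and 76.2 CPM in the knockdown. It rose 1.60-fold without overlap (log2 fold change 0.68, SE 0.045, adjusted p = 1.08e-08 by edgeR quasi-likelihood). ZNF267, a KRAB gene, stood at 19.1 and 18.3 CPM in the controls and at 29.7 and 27.4 CPM in the knockdown, again with no overlap. Its log2 fold change was 0.61 (SE 0.075, adjusted p = 8.92e-06 by edgeR quasi-likelihood).

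ZNF207, also called BuGZ, a microtubule-binding protein of the mitotic spindle and partner of BUB3, had 97.7 and 98.8 CPM in the controls against 148 and 141 CPM in the knockdown. The log2 fold change of ZNF207 was 0.56 (SE 0.041, adjusted p = 3.61e-08 by edgeR quasi-likelihood), and 25.2% of its windows also occur in other genes, so part of its reads may be shared. ZNF326, a subunit of the DBIRD complex that couples splicing to transcript elongation, had 29.4 and 29.6 CPM in the controls and 44.2 and 39.7 CPM in the knockdown (log2 fold change 0.51, adjusted p = 5.18e-06 by edgeR quasi-likelihood). In both genes each knockdown library lay above each control library. The next rises were those of ZNF74 (log2 fold change 0.50), of ZNF259, whose current symbol is ZPR1 and whose product binds the motor neuron protein SMN (0.44), and of ZNF23 (0.43). In ZNF23, 98.8% of the windows are shared with another annotated gene, AC010547.4, which overlaps it on the same strand, so its reads cannot be assigned with certainty.

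The largest fall was that of ZNF358, a C2H2 gene with 9 finger matches and no KRAB box. It had 33.6 and 30.5 CPM in the controls and 15.0 and 17.0 CPM in the knockdown. Both knockdown libraries were low, at 0.498 times the control level. The log2 fold change was -1.004 (SE 0.082, adjusted p = 1.16e-07 by edgeR quasi-likelihood). Its exons overlap those of AC008878.1 on the same strand and of AC008878.4 on the other, and no source used here gives the use of strand in counting, so part of this change may belong to those genes.

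ZNF441, a KRAB gene on chromosome 19 with 14 finger matches, had 22.2 and 20.7 CPM in the controls and 14.9 and 13.8 CPM in the knockdown. It fell by 0.58 on the log2 scale (SE 0.091, adjusted p = 9.10e-05 by edgeR quasi-likelihood), with no overlap between groups. ZNF395, a transcription factor induced in hypoxia, had 55.6 and 50.5 CPM in the controls and 34.6 and 37.2 CPM in the knockdown. It fell by 0.56 on the log2 scale, but 96.1% of its windows are shared with other annotation, FBXO16 included, so the gene that lost reads cannot be named with certainty.

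ZNF367 and ZNF618 fell together, each by 0.52 on the log2 scale, and neither has shared windows. ZNF367 went from 72.3 and 73.0 CPM to 49.6 and 51.8 CPM (adjusted p = 2.90e-07 by edgeR quasi-likelihood). ZNF618, a partner of the DNA modification reader UHRF2, went from 54.3 and 54.0 CPM to 37.5 and 38.2 CPM (adjusted p = 2.70e-07 by edgeR quasi-likelihood). In neither gene did the groups overlap. ZNF213 (log2 fold change -0.51), which has both a KRAB box and a SCAN dimerisation domain, ZNF268 (-0.49) and ZNF561 (-0.45) completed the 8 largest falls; ZNF561 has an antisense partner, ZNF561-AS1. Each of the 16 members with the largest rises and falls kept its direction under every scaling, filter, tool and left-out library tried. Each also stayed called under every scaling, filter and tool. The 16 were chosen for large called changes in these same libraries, so this is no independent support.

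**Figure D2:**
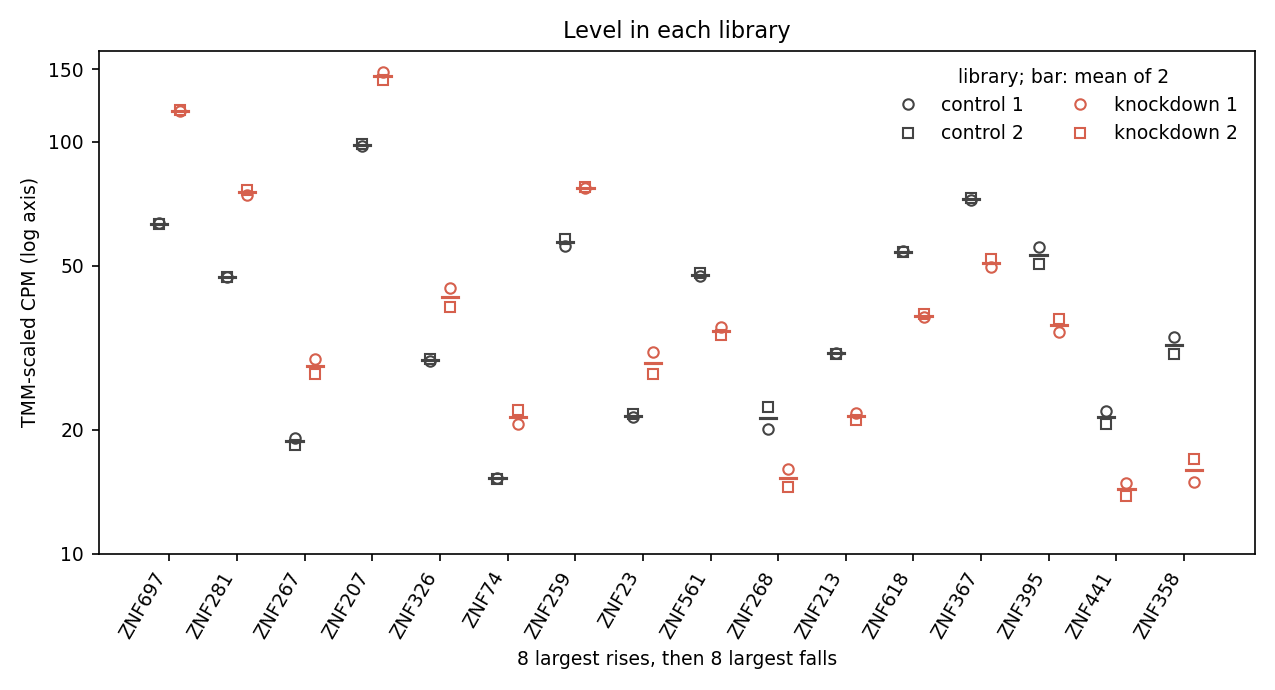
TMM-scaled CPM (log axis) of the 8 members with the largest rises and the 8 with the largest falls in each of the 4 libraries; circles are replicate 1, squares replicate 2, bars the mean of 2 libraries. The 16 genes were picked among called members whose groups do not overlap, so the separation of their libraries follows from that choice. The means went from 63.2 to 119 CPM in ZNF697 and from 32.1 to 16.0 CPM in ZNF358.

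Of the 3 members with the highest CPM, ZNF664 fell and ZNF770 and ZNF146 were not called. CPM is not per transcript length, so it does not rank the transcripts of different genes. ZNF664 had 276 and 275 CPM in the controls and 239 and 224 CPM in the knockdown, a log2 fold change of -0.25 (adjusted p = 6.50e-06 by edgeR quasi-likelihood). Its deposited values are not whole numbers, and its exons overlap those of other genes. ZNF770 had 212 and 209 CPM in the controls and 212 and 202 CPM in the knockdown, and ZNF146 had 192 and 190 against 194 and 177 CPM. Both overlapped between groups and were not called (adjusted p = 0.525 and 0.371 in edgeR's quasi-likelihood test).

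By role, the members known for work on RNA, ribosomes or the spindle numbered 8, of which 5 rose, 1 fell and 2 were not called, with a median log2 fold change of 0.20. This count and those of the other roles stand beside 33.0% higher and 27.9% lower among equally counted genes. ZNF346, an RNA-binding protein of the same list, missed the rule with 199 and 188 counts in the knockdown libraries (265 and 252 in the controls) and was called lower (-0.27), so that the 9 listed genes tested gave 5 higher and 2 lower. Beside ZNF207 and ZNF326, the risers were ZNF598, the ubiquitin ligase that recognises collided ribosomes (157 and 158 CPM in the controls, 190 and 189 CPM in the knockdown, log2 fold change 0.27), ZNF622, a factor of large ribosomal subunit maturation (0.23), and ZNF473, a factor of histone mRNA 3′ end processing (0.16). ZNF638, which silences unintegrated viral DNA, fell by 0.21 on the log2 scale, from 156 and 151 CPM to 132 and 134 CPM. ZNF593 (log2 fold change 0.06) and ZNF830 (-0.05) were not called. This list was composed with results of these data known, and its count is a description of 8 genes.

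The members known as DNA-binding regulators went in both directions, with 2 of 8 higher, 4 lower and 2 not called (median log2 fold change -0.12). ZNF281 and ZNF143 rose. ZNF143, an activator that binds many promoters, had 21.4 and 21.8 CPM in the controls and 26.0 and 26.9 CPM in the knockdown, a log2 fold change of 0.29 (adjusted p = 0.00309 by edgeR quasi-likelihood). The 4 that fell were ZNF367 and ZNF395, described above, ZNF148, a GC-box binding relative of ZNF281 (-0.23), and ZNF217, a gene amplified in breast cancer whose protein recruits the CoREST and CtBP corepressors (-0.19). ZNF217 had 74.4 and 72.8 CPM in the controls and 65.8 and 62.8 CPM in the knockdown, with an edgeR quasi-likelihood adjusted p of 0.00369 that became 0.0508 without knockdown replicate 2. ZNF24 (log2 fold change -0.02) and ZNF746 (-0.05) were not called. ZNF703, a regulator amplified in luminal breast cancer, missed the count rule, with 223 and 234 counts under DMSO against 142 and 131 under knockdown; it fell by 0.59 on the log2 scale (adjusted p = 0.000419 by edgeR quasi-likelihood). With the listed genes outside the rule, the 11 tested gave 2 higher and 6 lower.

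The 3 zinc finger genes of the module that binds the chromatin reader ZMYND8 all fell while ZMYND8 itself rose. ZNF687 went from 46.1 and 47.7 CPM to 36.2 and 38.1 CPM, a log2 fold change of -0.34. ZNF532 went from 134 and 127 CPM to 106 and 112 CPM (-0.26), and ZNF592 from 84.8 and 80.8 CPM to 71.8 and 75.2 CPM (-0.17). By edgeR quasi-likelihood the adjusted p was 4.70e-05, 0.000226 and 0.0124 for ZNF687, ZNF532 and ZNF592, and for ZNF592 it was 0.0934 without control replicate 1. ZMYND8 rose from 189 and 181 CPM to 258 and 265 CPM (log2 fold change 0.50, adjusted p = 3.02e-09 by edgeR quasi-likelihood). In none of the 4 genes did the groups overlap, which was also the case in 80.9% of equally counted genes. Of the equally counted genes 33.0% were called higher and 27.9% lower.

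Of 9 long or chromatin-linked members, 2 rose, 2 fell and 5 were not called. ZNF609, a partner of the Integrator complex and the cohesin loader NIPBL, fell by 0.35 on the log2 scale, from 136 and 140 CPM to 108 CPM in both knockdown libraries. The paralogs ZNF518A and ZNF518B went opposite ways. ZNF518A rose from 44.4 and 44.0 to 54.7 and 51.2 CPM (log2 fold change 0.26). ZNF518B fell from 56.8 and 60.1 to 48.6 and 51.4 CPM (-0.23), and by edgeR quasi-likelihood its adjusted p was 0.0833 without control replicate 2. ZNF451, a SUMO ligase, was called at a change of 0.10 on the log2 scale (adjusted p = 0.0457 by edgeR quasi-likelihood) and lost the call in 7 of the 12 other fits.

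Of 5 members with described repeat, imprint or ZNF cluster targets, 1 rose, 1 fell and 3 were not called. ZNF445, a KRAB protein that maintains imprints, fell by 0.35 on the log2 scale, from 45.8 and 48.9 CPM to 36.6 and 37.6 CPM (adjusted p = 3.82e-05 by edgeR quasi-likelihood). ZNF587 was called higher at 0.16, with 53.1 and 50.5 CPM in the controls and 56.6 and 58.7 CPM in the knockdown, and lost the call under DESeq2 (adjusted p = 0.131). ZNF274, which binds the ends of other zinc finger genes and recruits SETDB1 there, was not called (-0.10, adjusted p = 0.194 by edgeR quasi-likelihood), although its 2 knockdown libraries (28.7 and 29.3 CPM) lay below its controls (29.9 and 32.4 CPM).

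Transcripts of the machinery through which KRAB zinc finger proteins act were read from the same fit. Of its 16 genes, the HUSH silencing complex included, 4 rose, 8 fell and 4 were not called, with a median log2 fold change of -0.05; among equally counted genes 60.9% were called. TRIM28, the corepressor that binds the KRAB box, rose from 386 and 390 CPM to 460 and 475 CPM (log2 fold change 0.27, adjusted p = 1.89e-07 by edgeR quasi-likelihood). Its relative TRIM24 fell from 53.0 and 50.7 CPM to 22.3 and 21.3 CPM, to 0.42 of the control level (log2 fold change -1.25, adjusted p = 1.18e-10 by edgeR quasi-likelihood). CBX5, an HP1 protein, fell by 0.44 and CHD3, a remodeller of the NuRD complex, by 0.34 on the log2 scale. The methyltransferase gene SETDB1 was not called (0.11). The 6 corepressor genes of ZNF217 were all called, each at under 1.25-fold and against 60.9% of equally counted genes, 2 higher (HDAC2 at 0.13, KDM1A at 0.09) and 4 lower (CTBP2 at -0.19, CTBP1 at -0.17, HDAC1 at -0.15, RCOR1 at -0.12).

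The coding sequences of GENCODE transcripts were searched for domains, since no protein table was used here. Of 188 members with a coding transcript, 183 had at least 1 C2H2 finger match; the exceptions were ZNF259, ZNF330, ZNF503, ZNF839 and ZNF862, named after their values were seen. A KRAB box was found in 99 members, 6 of which also had a SCAN domain, and a SCAN domain without a KRAB box in 7. Among the 99 with a KRAB box, 23 rose, 14 fell and 62 were not called, with a median log2 fold change of 0.022. Among the 89 coding members without one, 23 rose, 23 fell and 43 were not called, with a median of -0.027. The shares called higher and lower were 23.2% and 14.1% with a KRAB box and 25.8% each without one. All lie below the 33.0% higher and 27.9% lower of equally counted genes. Members with a KRAB box had lower CPM (median 23.3) than those without (44.5), and the part of that gap in the counts of calls was not tested. The difference between the classes was not tested either. Under a rule of a mean count of at least 200, in place of 200 in each library, the members with a KRAB box were 120, of which 24 fell, and their median was -0.0054.

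The 5 largest changes of either sign included KRAB genes (ZNF267, ZNF441) and genes without a KRAB box (ZNF697, ZNF281, ZNF358). Of the 6 members with both domains, ZNF213 and ZNF445 fell and the others were not called. ZNF263 was the 1 member that rose among those with a SCAN domain and no KRAB box found (log2 fold change 0.25). The 3 members with no coding transcript were ZNF252P, which fell, and ZNF271 and ZNF767, which were not called. Across the members the log2 fold change had a Spearman correlation of -0.060 with the number of finger matches (n = 188), -0.10 with coding length (n = 188), 0.035 with transcript GC content (n = 191) and 0.022 with mean CPM (n = 191), given as descriptions over genes of the same libraries.

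**Figure D3:**
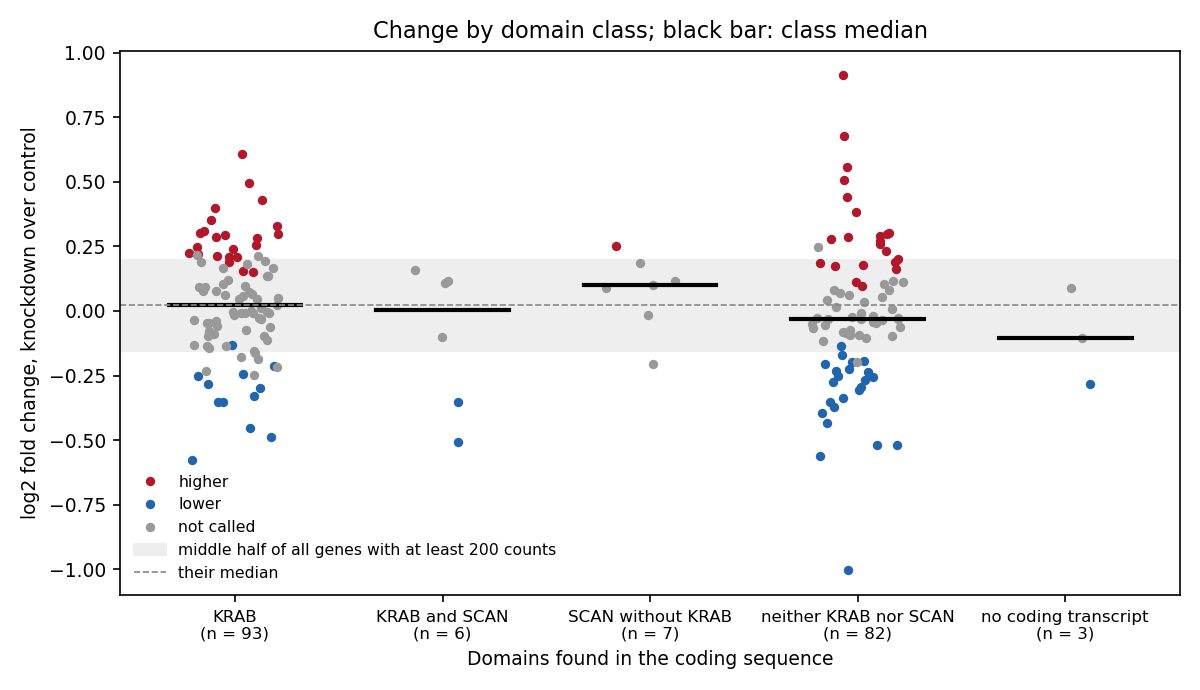
Log2 fold change (knockdown over control) of the 191 members by the domains found in their coding sequence; points are genes coloured by edgeR call, black bars class medians, the grey band the middle 50% of all genes with at least 200 counts in each library and the dashed line their median. The classes overlap over most of their range, with medians of 0.022 (KRAB), 0.0033 (KRAB and SCAN), 0.099 (SCAN without KRAB), -0.029 (neither) and -0.10 (no coding transcript).

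Chromosome 19 carries the large human ZNF clusters. Of the 165 members placed through the RefSeq table, 61 lie on it, of which 14 rose and 9 fell (median log2 fold change 0.0058). The 104 that lie elsewhere gave 28 rises and 25 falls (median -0.0095). The shares called higher and lower were 23.0% and 14.8% on chromosome 19 and 26.9% and 24.0% elsewhere. Among equally counted genes they were 33.0% and 27.9%. Members that are neighbours, with at most 2 other protein-coding genes between them, formed 53 pairs. The pairs had the same sign in 27 cases, and the median size of the difference within a pair was 0.17 on the log2 scale. No such value was computed for members that are not neighbours, so likeness of neighbours was not tested. ZNF561 (-0.45) lies beside ZNF121 (0.28), which was called higher, and ZNF213 (-0.51) beside ZNF205 (0.35). In 7 runs of at least 4 neighbouring members, 2 had 3 rises and no fall. These were the 6 members from ZNF264 to ZNF548 on chromosome 19, where ZNF805, ZNF460 and ZNF304 rose (median 0.20), and the 6 from ZNF398 to ZNF862 on chromosome 7, where ZNF282, ZNF783 and ZNF862 rose (median 0.10). The runs were described after their values were seen.

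The numbers of rises and falls depended on the count rule. The rule asks for 200 counts in each library, so a gene can miss it in a control library or in one of the shallower knockdown libraries. The part of the rule in the direction of the changes was not tested. Just inside the threshold were ZNF780B (lowest count 201), ZNF484 (202) and ZNF780A (203), and just outside ZNF704 (199), ZNF57 (195) and ZNF615 (195). ZNF704 missed it in a control library, had 257 and 238 counts in the knockdown and was called higher (log2 fold change 0.46). A total of 30 numbered ZNF genes had a mean count of at least 200 but missed it in a library; 2 of them rose and 14 fell. With them included, 221 genes gave 48 rises and 52 falls in place of 46 and 38, with a median log2 fold change of -0.015.

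The numbered ZNF genes below the rule were 330, of which 243 could be tested: 10 rose, 59 fell and 174 were not called. Their median log2 fold change was -0.19, against -0.078 over all 5141 genes tested that missed 200 counts in a library. In those 5141 genes 11.7% were called higher and 19.9% lower, and in the 243 ZNF genes 4.12% and 24.3%. These shares describe the lists and were not tested against each other. Over all 434 numbered ZNF genes tested, 56 rose and 97 fell, with a median of -0.073.

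**Figure D4:**
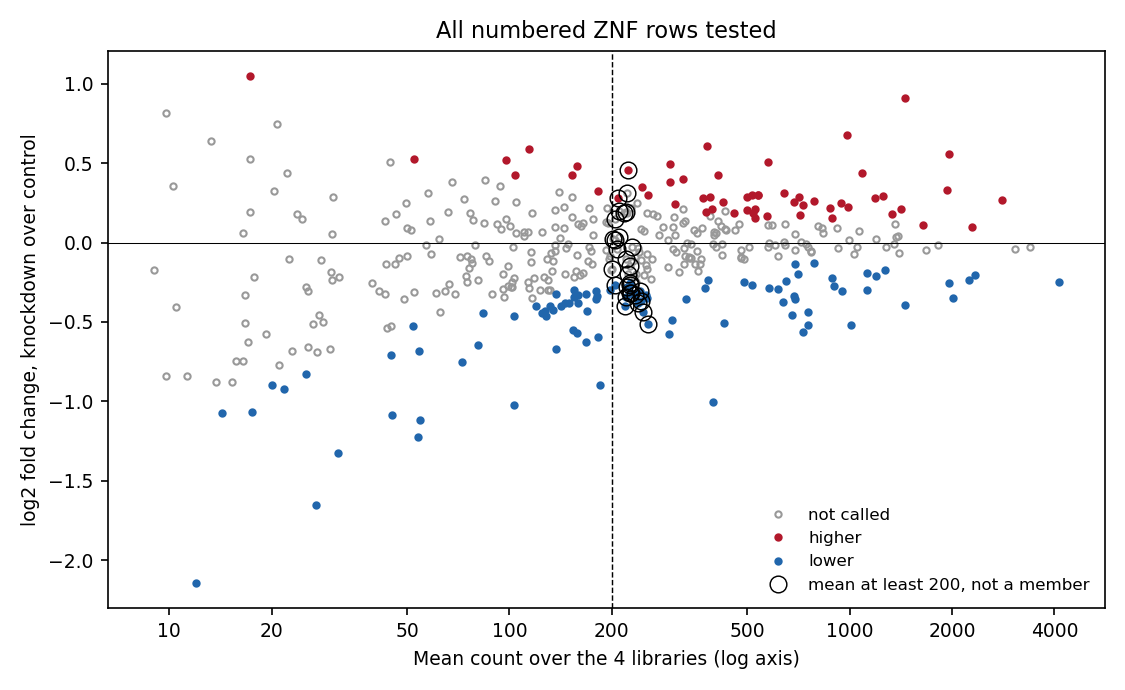
Log2 fold change (knockdown over control) of the 434 numbered ZNF genes tested against their mean count over the 4 libraries (log axis); filled points were called by edgeR, the dashed line marks a mean of 200 and black rings the 30 genes with a mean of at least 200 that missed it in a library. To the left of the line called genes were mostly lower, and to the right both directions were present.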

How the data were processed

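RNA of 4 SUM159 libraries was sequenced from polyadenylated RNA, per the labels' protocols. The deposited values are estimated counts for each gene symbol, without normalisation; 5 members (ZNF664, ZNF721, ZNF687, ZNF740 and ZNF436) held values off a whole number by more than 0.0001. Reads were aligned with STAR to GRCh37, per the submitters' processing notes. The counting program, annotation, strand setting and handling of ambiguous reads were not given in the sources used here.

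All 4 columns were matched to samples by name and grouped by the treatment label. Counts were rounded and tested with edgeR 4.0.16 (R 4.3.3; TMM, filterByExpr with a minimum count of 10, glmQLFit, glmQLFTest, two-sided), group as the single term, with Benjamini-Hochberg adjustment over 13915 genes and calls under 0.05. Small changes were called, since the biological coefficient of variation was 2.69%. Chi-square per gene was 2.06 and 1.74 between replicates and 32.3 between groups, so no library is a copy of another. The test was also run on simulated counts, where its share of false calls was above 0.05 and many 1.2-fold changes were missed. Totals of 15641292 to 17197706 counts limit the precision for low genes.

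Coding sequences were translated from GENCODE transcripts (GRCh38). A KRAB A box was called at 54% of 19 fixed positions and a SCAN domain at 60% of 28; 32-base windows were compared between genes. Exons of 98 members overlap another gene, in 68 antisense, and in 28 members at least 20% of windows occur elsewhere. Promoters are from RefSeq.

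Named are SPEN, the 8 largest rises and falls among called members without overlap, the 3 members with the highest CPM, up to 4 called genes per list, ZNF217, ZNF703, ZNF281, ZNF143, ZNF148, ZNF207, ZNF274 and TRIM28, and the 3 genes on each side of the threshold. The members and all lists were chosen with earlier results of these data known. Alternatives were RLE, upper-quartile and library-size scaling, other filters, DESeq2 1.42.0, limma-voom (limma 3.58.1), a replicate block, each library left out, other membership rules and an adjusted p under 0.01.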

Additional observations from a re-analysis of the deposited data

How the results depend on the processing

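Directions of named genes held in all 718 fits of a named gene under an alternative, with 0 reversals, 31 lost calls and 5 gained ones; for named members these were 17 and 5 of 444. Counts of calls and medians near 0 depended on the settings. With library size alone the medians were -0.053 (members), -0.023 (KRAB) and -0.073 (other coding members). DESeq2 called 29 members and 13 KRAB members higher. Leaving out each library in turn gave 30 to 41 higher and 31 to 36 lower, 12 to 19 KRAB members higher, and medians of -0.017 to 0.024 (members), -0.0046 to 0.038 (KRAB) and -0.031 to -0.0055 (other coding members); the lowest counts of rises, 30 and 12, came without control replicate 2, where fewer libraries were tested. An arm left with 1 library is assumed to vary like the other. Under other membership rules the gene sets differ. A mean count of at least 200 gave 24 KRAB members lower and a KRAB median of -0.0054. At least 100 counts gave 73 lower (36 KRAB, 36 other coding), with medians of -0.031 (all) and -0.029 (KRAB). At least 500 gave 27 higher (12 KRAB, 15 other coding), 6 KRAB lower and a KRAB median of 0.093. Every numbered ZNF gene tested gave 97 lower (49 KRAB, 45 other coding) and medians of -0.073 (all), -0.069 (KRAB) and -0.072 (other coding). Without members of fractional counts the KRAB median was 0.046. Added after the data were seen: under 20% shared windows (KRAB median 0.0011), no exon overlap (23 higher, 19 lower of 93) and a KRAB box at 40% of positions (KRAB median 0.048). An adjusted p under 0.01 left 34 higher and 33 lower. Control and knockdown libraries share only replicate numbers. Across the genes tested, the difference between replicates 1 and 2 of the controls correlated at 0.19 with that of the knockdown. With the number as a replicate block, 49 members were higher and 38 lower. Other causes of these shifts were not tested.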

Other observations

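Other zinc finger families were described from the same fit, with the same rule of at least 200 counts in each library. Of 30 ZBTB genes, whose BTB domain forms dimers and binds corepressors, 12 rose and 8 fell; their median was 0.10 on the log2 scale. Of 6 ZSCAN genes 0 rose and 2 fell, and of 5 ZKSCAN genes 0 rose and 2 fell. Of 8 ZFP genes 1 rose and 2 fell. Among all genes under the same rule 33.0% were called higher and 27.9% lower, and the ZBTB shares were 40% and 26.7%. The other families hold few genes, so none of these counts is a result about a family. The families were not tested against the ZNF genes.

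Among the numbered ZNF genes below the count rule, the lowest log2 fold change was that of ZNF467, at -2.14 from 1.17 to 0.259 CPM, and the highest that of ZNF671, at 1.05 from 0.703 to 1.46 CPM (edgeR quasi-likelihood adjusted p = 0.00125 and 0.0221). Their mean counts were 12 and 17.25 per library, and both were named after their values were seen.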
